A study of Mus musculus with 6 samples.

Results

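The genes described here encode the subunits of the mitochondrial respiratory chain and of ATP synthase. They were taken by platform symbol: Ndufa, Ndufb, Ndufc, Ndufs and Ndufv genes for complex I, Sdh genes for complex II, Uqcr genes and Cyc1 for complex III, Cox4 to Cox8 genes for complex IV, Atp5 genes for complex V, and Cycs for cytochrome c. This gave 89 genes of the 12393 with a probe set of 1 symbol, namely 39 in complex I, 7 in complex II, 9 in complex III, 16 in complex IV, 17 in complex V and Cycs. The rule used names alone and no measured value. It also caught 8 assembly factors (5 Ndufaf and 3 Sdhaf genes) and Cox7a2l, a factor of respiratory supercomplexes, so that 80 of the 89 genes encode subunits. Each gene is represented by its probe set with the highest mean over the 6 arrays.

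Complexes I and II pass electrons from NADH and succinate to ubiquinone, complex III passes them on to cytochrome c, and complex IV hands them to oxygen. Complexes I, III and IV pump protons out of the mitochondrial matrix, and complex V, ATP synthase, lets them flow back to make ATP. Most subunits are encoded in the nucleus, and a few hydrophobic ones in mitochondrial DNA. Regulatory T cells (Treg), which depend on the factor Foxp3 and hold immune responses in check, are known for relying on oxidative phosphorylation more than effector T cells do.

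The arrays compared 3 samples of CD4+CD25+ T cells from HDAC9-/- mice, which lack a class IIa histone deacetylase, with 3 samples of the same fraction from wild type mice, and the labels give C57BL/6 as the strain of both genotypes. The fraction was separated magnetically, and CD25 is a chain of the interleukin-2 receptor. The sources used here do not give age, sex, the deleted exons or whether a sample pools several animals, so p-values cover only the spread among these samples, which may be technical. Values are log2 expression per probe set as the authors deposited them, and their precision is limited by the number of arrays. Differences are HDAC9-/- minus wild type. Foxp3 read 10.29 to 10.38 on wild type and 10.33 to 10.44 on HDAC9-/- arrays, and Cd3e, Cd3g, Cd4, Il2ra and Ctla4 were all above 9 on every array. Of these, Il2ra, the gene of CD25, had separate groups, at 9.45 to 9.54 in wild type against 9.34 to 9.42. Ikzf2, the gene of Helios, a factor found in many Treg, was dim, at 4.36 to 5.24 and 4.89 to 5.29, below the overall array median of 5.76. The probe set of Hdac9 read 3.50, 3.74 and 4.10 in wild type and 3.74, 3.62 and 3.66 in HDAC9-/- samples, which is dim in both genotypes, and it did not check the genotype labels. In a bulk fraction, fewer cells of a type and less RNA per cell cannot be told apart.

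The respiratory chain and ATP synthase genes read slightly higher in the HDAC9-/- samples of the CD4+CD25+ fraction, with no single gene past the threshold. Of the 89 genes, 76 had a positive and 13 a negative difference, where 52.2% of all probe sets and 54.0% of all genes were positive. Their median was 0.090, which is 6.5% more signal, against a median of 0.0078 over all 22626 probe sets. The middle of the distribution ran from 0.049 to 0.13 (lower to upper quartile), and 74 genes had a positive difference smaller than 0.2. The 3 genes beyond that size were Cox7c (0.27), Ndufa12 (0.23) and Cox8b (-0.23).

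In the fit across all probe sets with limma, 0 of the 89 genes had an adjusted p below 0.05, a threshold that 0.0133% of all probe sets and 0.00807% of all genes passed. At an unadjusted p below 0.05 there were 7 genes, all higher in HDAC9-/- samples. That is 7.87% of the genes, near the background of 5.55% of all probe sets and 6.12% of all genes, and is not a result about them. On the lower side there were 0, where the background was 3.23% of all probe sets and 2.62% of all genes. With a variance prior that follows brightness the same count was 33 genes, against 6.75% of all probe sets, and 0 of them had an adjusted p below 0.05. It was 2 with array medians aligned (background 3.83%) and 0 without HDAC9-/- replicate 1 (3.42%). It was 3 without wild type replicate 2 (5.14%), HDAC9-/- replicate 2 (4.14%) or HDAC9-/- replicate 3 (4.31%), and 4 without wild type replicate 3 (5.26%).

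The genotypes separated more often than on the array as a whole. For 49 genes (55.1%) every HDAC9-/- array lay above every wild type array, a pattern shown by 11.0% of all probe sets and 12.5% of all genes. Genes whose arrays do not overlap between genotypes are called separated, here higher unless stated. For 0 genes all HDAC9-/- arrays lay below, against 6.04% of all probe sets and 5.70% of all genes. These genes are bright, and bright genes vary little: 59 of the 89 had a mean of at least 10. The median SD within a genotype was 0.049 for the 89 genes, 0.056 for all genes with such a mean and 0.123 over all probe sets. Among the 929 genes of the array with a mean of at least 10, 56.6% had a positive difference, 21.9% were separated higher and 10.4% lower, 0.00% had an adjusted p below 0.05 (limma), 3.88% were higher and 3.23% lower at an unadjusted p below 0.05, and the median difference was 0.017. Of the 59 bright members 51 were positive, 38 were separated higher (64.4%), 3 had an unadjusted p below 0.05, and their median was 0.088. The 929 genes include these 59, and the median of the other 870 was 0.011. With array medians aligned, the number of separated genes among the 89 was 27, against 7.83% of all probe sets.

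**Figure D1:**
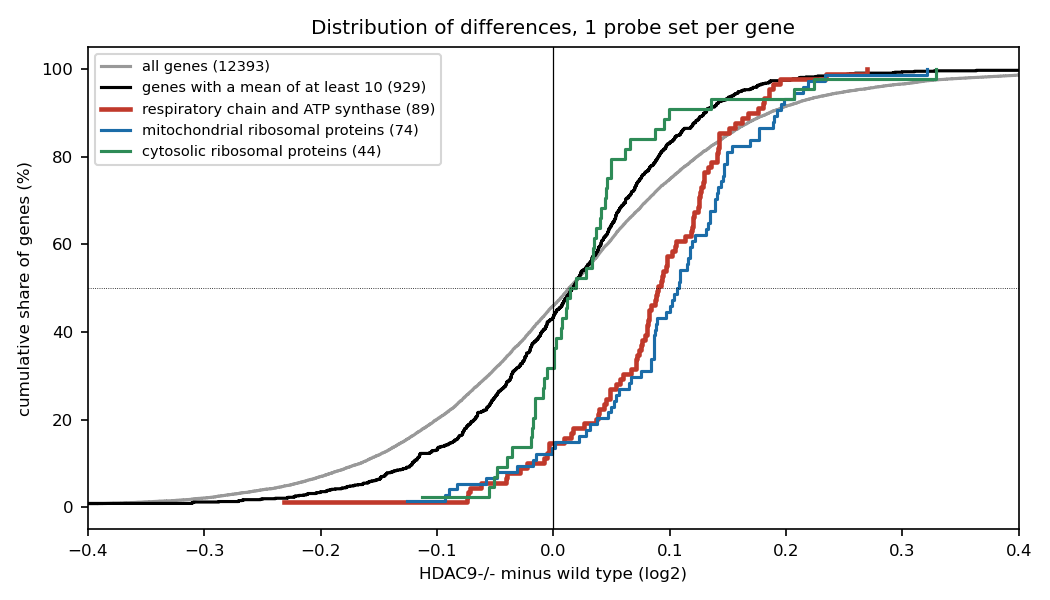
Cumulative share of genes (vertical axis, percent) by difference between HDAC9-/- and wild type arrays (horizontal axis, log2) for all 12393 genes, the 929 genes with a mean of at least 10, the 89 respiratory chain and ATP synthase genes, 74 mitochondrial ribosomal protein genes and 44 cytosolic ribosomal protein genes. The curve of the respiratory chain genes crosses the middle at 0.090 and lies near that of the mitochondrial ribosomal proteins (0.11), while the other curves cross it at 0.013 to 0.017.

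The promoters of these genes are known for binding the factors NRF-1, GABP and YY1, which tie nuclear respiratory genes to common control. RefSeq promoter windows (250 bases before to 50 after the start, GRCm38.p6) were matched for 74 of the 89 genes, with 79 windows. The letters searched, on both strands, were GCGCATGC for NRF-1, CCGGAAG for the ETS family to which GABP belongs, and AAGATGGC for YY1. NRF-1 letters stood in 12 member windows (15.2%) against 4.29% of the windows of genes on the array and 2.71% of all windows in the table. ETS letters stood in 20 (25.3%, against 14.01% and 8.86%), and YY1 letters in 9 (11.4%, against 3.60% and 2.75%). In 7 of the 9 genes with YY1 letters these began 22 to 38 bases after the start.

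The following stretches are the 100 bases before the start of 1 gene for each complex and of Cycs, shown because they carry such letters, in capitals, wholly before the start; each is the gene with the smallest p of its complex among those that do. They are 5′ to 3′ on the gene's strand.
Ndufb7 (complex I, ETS, chr8:83566658-83566757, plus strand): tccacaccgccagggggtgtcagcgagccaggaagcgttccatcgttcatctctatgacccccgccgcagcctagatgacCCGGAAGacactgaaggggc
Sdhd (complex II, ETS, chr9:50603850-50603949, minus strand): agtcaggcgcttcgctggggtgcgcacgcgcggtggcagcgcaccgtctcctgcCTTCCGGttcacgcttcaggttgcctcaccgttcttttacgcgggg
Uqcr11 (complex III, ETS, chr10:80406822-80406921, minus strand): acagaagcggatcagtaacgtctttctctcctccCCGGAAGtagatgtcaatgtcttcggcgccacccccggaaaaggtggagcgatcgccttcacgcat
Cox6a1 (complex IV, ETS, chr5:115348959-115349058, minus strand): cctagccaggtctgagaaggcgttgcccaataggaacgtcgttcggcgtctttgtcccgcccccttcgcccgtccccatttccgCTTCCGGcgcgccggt
Atp5g2 (complex V, NRF-1 on both strands, overlapping, chr15:102671048-102671147, minus strand): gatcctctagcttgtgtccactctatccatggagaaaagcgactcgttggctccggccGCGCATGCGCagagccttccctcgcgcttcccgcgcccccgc
Cycs (cytochrome c, NRF-1, chr6:50566570-50566669, minus strand): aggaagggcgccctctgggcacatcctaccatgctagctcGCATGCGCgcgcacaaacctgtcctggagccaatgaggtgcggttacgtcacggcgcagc

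Genes with and without such letters had these values in the expression data. The median difference was 0.10 for the 12 genes with NRF-1 letters and 0.092 for the 62 without, and 0.085 for the 20 with ETS letters and 0.098 for the 54 without. For YY1 letters the medians were 0.043 over 9 genes and 0.098 over 65. These are descriptions of letters in a window and were not tested against the expression values.

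Complex I, the NADH dehydrogenase, had positive differences in all but 1 of its 39 genes, with a median of 0.093. All 6 measured nuclear genes of its catalytic core were positive (median 0.11). So were all 28 genes counted as accessory subunits (median 0.096), which were placed in complex I by symbol alone, Ndufa4 among them. The genotypes separated for 23 of the 39 genes, 4 of them in the core. For this and the other complexes the background is 12.5% of all genes separated higher. It is 21.9% among genes with a mean of at least 10. Among subunit families the Ndufb genes, which belong to the membrane arm, had a median of 0.12 over 10 genes with 8 separated, and the Ndufa genes 0.068 over 12 with 6 separated. The difference between these families was not tested.

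Ndufb7, a membrane arm accessory subunit, read 10.44, 10.39 and 10.35 on the wild type arrays and 10.60, 10.59 and 10.53 on the HDAC9-/- arrays. Its groups did not overlap, and the difference was 0.18 ± 0.07 (standard error; limma, adjusted p = 0.543). Its other probe set had a difference of 0.16 and was also separated. Ndufc2, another membrane arm subunit, read 10.93, 10.98 and 11.01 in wild type and 11.20, 11.16 and 11.09 in HDAC9-/- samples, again without overlap (difference 0.18, limma adjusted p = 0.549). The dimmer probe set of Ndufc2 had 0.16 and was separated too.

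Ndufs4, an accessory subunit next to the NADH-oxidising module and a gene of mitochondrial disease when mutated, read 9.14, 9.04 and 8.98 in wild type and 9.21, 9.25 and 9.24 in HDAC9-/- samples. The HDAC9-/- values lay close together and above all wild type values, with a difference of 0.18 (limma, adjusted p = 0.549). Ndufb8 was the tightest of these genes, at 9.56, 9.61 and 9.60 against 9.73, 9.75 and 9.74 (difference 0.15, limma adjusted p = 0.557). Ndufaf7, a methyltransferase that acts on a core subunit during assembly, read 6.79, 6.74 and 6.65 in wild type and 6.92, 6.84 and 6.97 in HDAC9-/- samples, a difference of 0.19 (limma, adjusted p = 0.557).

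In the core, Ndufv1, which binds NADH and flavin, read 9.59, 9.60 and 9.48 in wild type and 9.69, 9.69 and 9.71 in HDAC9-/- samples (difference 0.14). The iron-sulfur subunit Ndufs8 had 0.13 and Ndufs3 0.13, both separated, while Ndufs1, the largest core subunit, had 0.016 and overlapped. Ndufa12 had the largest difference of the complex, 0.23, but wild type replicate 3 read 10.27 where the other wild type arrays read 10.61 and 10.68. Without that array its difference was 0.11. Its other probe sets had differences of 0.14, 0.0040 and, for a dim probe set, -0.25. The 1 negative gene of the complex was the assembly factor Ndufaf3 (-0.0076), which turned positive without wild type replicate 1 (0.046) or HDAC9-/- replicate 3 (0.0085).

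**Figure D2:**
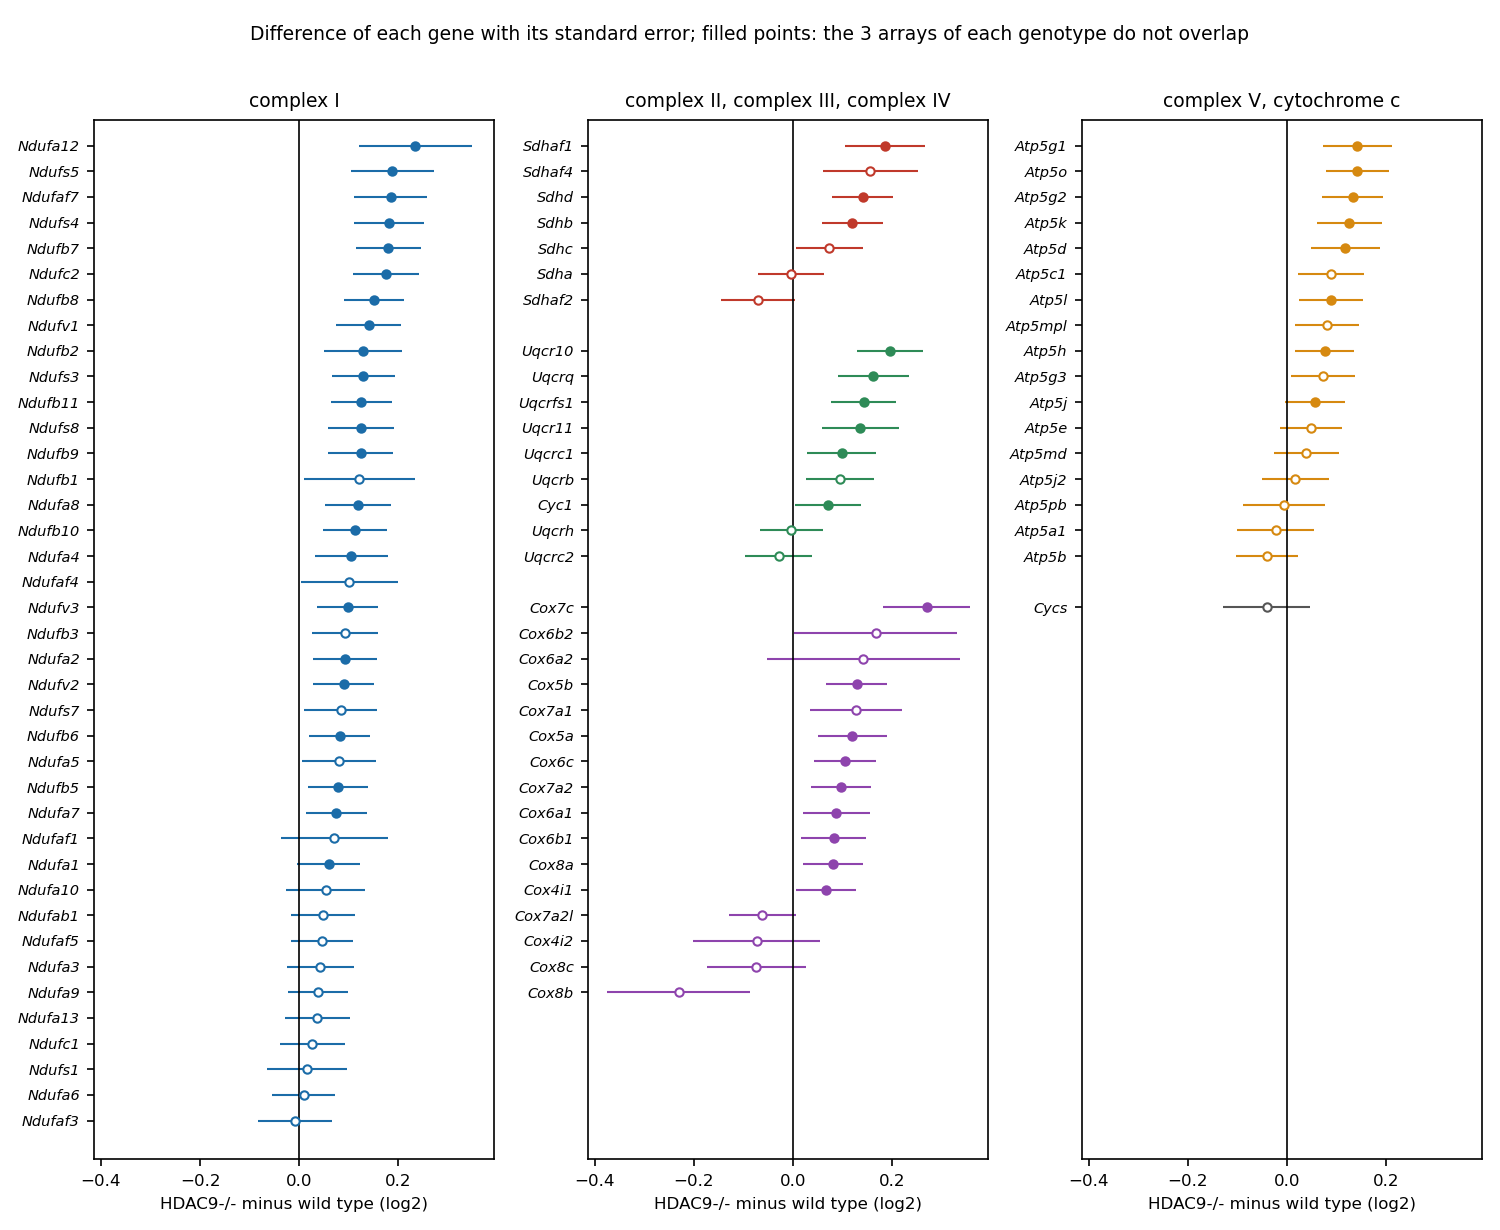
Difference between HDAC9-/- and wild type arrays (horizontal axis, log2) for each of the 89 genes, in panels for complex I, complexes II to IV, and complex V with cytochrome c. Points are limma estimates, bars are standard errors, and filled points mark genes whose 3 arrays per genotype do not overlap; all 49 filled points lie to the right of 0.

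Complex II, succinate dehydrogenase, is the only complex with no mitochondrially encoded subunit and also works in the tricarboxylic acid cycle. Its median difference was 0.12 over 7 genes, with 5 positive and 3 separated, and 0.074 without wild type replicate 3. Sdhd, a membrane anchor, read 9.61, 9.63 and 9.57 in wild type and 9.72, 9.74 and 9.78 in HDAC9-/- samples. The groups were separated by more than the spread within either of them, and the difference was 0.14 ± 0.06 (standard error; limma, adjusted p = 0.580). The dimmer probe set of Sdhd had -0.058 with overlap. Sdhb, the iron-sulfur subunit, read 10.71 to 10.77 and 10.82 to 10.88 (difference 0.12). Sdhaf1, which helps to place iron-sulfur clusters in Sdhb, had 0.19, with its lowest value on wild type replicate 1 (9.86), and 0.12 without that array.

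Among the other genes of complex II the groups overlapped. Sdhaf4, an assembly factor, had 0.16, and 0.073 without wild type replicate 3, its lowest array. The membrane anchor Sdhc had 0.073, 0.041 without HDAC9-/- replicate 3, and -0.022 in its other probe set. Sdha, the flavoprotein that oxidises succinate, had a mean of 10.05 in each genotype and a difference of -0.0038. Sdhaf2, which attaches flavin to Sdha, had -0.071 (95% confidence interval -0.25 to 0.11). The median of the 4 subunits alone was 0.097, and that of the whole complex was 0.041 when all probe sets of a gene were averaged.

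In complex III, which oxidises ubiquinol and reduces cytochrome c, 7 of 9 genes had positive differences, 6 were separated and the median was 0.098. Uqcr10, a small accessory subunit, read 9.98, 10.01 and 9.91 in wild type and 10.20, 10.11 and 10.18 in HDAC9-/- samples. No array of either genotype reached the other group, and the difference was 0.20 ± 0.07 (standard error; limma, adjusted p = 0.529). Uqcrfs1, the Rieske iron-sulfur protein that takes the first electron from ubiquinol, read 10.07, 10.14 and 10.17 against 10.26, 10.25 and 10.30 (difference 0.14).

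Uqcrq, another small accessory subunit, read 10.62, 10.68 and 10.50 in wild type and 10.79, 10.74 and 10.75 in HDAC9-/- samples (difference 0.16). Its 3 other probe sets were dim, under the overall array median of 5.76, and their differences of -0.26, -0.31 and 0.021 turned the gene's average over probe sets to -0.097. Cyc1, the cytochrome c1 subunit, read 10.12 to 10.25 against 10.27 to 10.28 (difference 0.071), separated by little, and its difference was 0.032 without wild type replicate 3. The core protein Uqcrc2 (-0.028) and the hinge protein Uqcrh (-0.0035) were the negative genes.

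Complex IV, cytochrome c oxidase, had 12 positive differences of 16, a median of 0.092 and 9 separated genes. Some of its subunits exist as a form found in most tissues and a form typical of muscle, testis or lung. All 9 genes of the common forms (Cox4i1, Cox5a, Cox5b, Cox6a1, Cox6b1, Cox6c, Cox7a2, Cox7c and Cox8a) had positive differences of 0.067 to 0.27 and all 9 were separated in the brightest probe set. Other bright probe sets of these genes did not always follow: those of Cox6a1 (0.035), Cox6b1 (0.089) and Cox6c (-0.022) overlapped, and so did both of Cox5a. The 6 tissue-restricted genes measured (Cox4i2, Cox6a2, Cox6b2, Cox7a1, Cox8b and Cox8c) had 3 positive and 3 negative differences, and 0 of 6 were separated. For 4 of these 6 the mean was under that overall median, so they were not shown to be expressed here. The split into common and restricted forms uses textbook knowledge and the difference between them was not tested.

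Cox7c, a small nuclear subunit, had the largest difference of all 89 genes. It read 8.09, 8.01 and 7.99 in wild type and 8.31, 8.16 and 8.43 in HDAC9-/- samples, and its HDAC9-/- arrays were spread more widely (SD 0.14) than its wild type arrays (SD 0.05). The difference was 0.27 ± 0.09 (standard error; limma, adjusted p = 0.508), and it was 0.20 to 0.34 when any 1 array was left out. Its dimmer probe set had 0.29 with overlapping groups.

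Cox5b, a zinc-binding subunit beside the catalytic core, had a mean of 12.02 ± 0.02 (SD, n = 3) in wild type, where no array exceeded 12.04, and read 12.17, 12.16 and 12.11 in HDAC9-/- samples (difference 0.13). The same direction was seen in its 3 other bright probe sets (0.11 to 0.14, all separated), while its dim probe sets had 0.080 and -0.16, both with overlap. Cox5a, the subunit that binds thyroid hormone, read 11.70, 11.84 and 11.74 against 11.92, 11.86 and 11.85 (difference 0.12). Its other probe sets, also bright, had 0.018 and -0.058 with overlapping groups. Cox4i1, the common form of the largest nuclear subunit, had the smallest difference of the 9 (0.067) at 12.08 to 12.11 against 12.15 to 12.19. Cox7a2l, known to be encoded in a shortened form in C57BL/6 mice, had -0.062 with overlapping groups, and 0.048 and -0.027 in its other probe sets.

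Of the tissue-restricted forms, Cox8b read 4.72, 4.41 and 4.97 in wild type and 4.39, 4.43 and 4.59 in HDAC9-/- samples, an overlap, with a difference of -0.23 a confidence interval of -0.58 to 0.11, and -0.096 without wild type replicate 3. Cox6b2 had 0.17, Cox6a2 0.14, Cox7a1 0.13, Cox4i2 -0.074 and Cox8c -0.074, and each of these 5 confidence intervals included 0. The SD of a genotype reached 0.33 among the restricted forms (Cox6a2, wild type) and 0.14 among the common forms (Cox7c, HDAC9-/-).

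**Figure D3:**
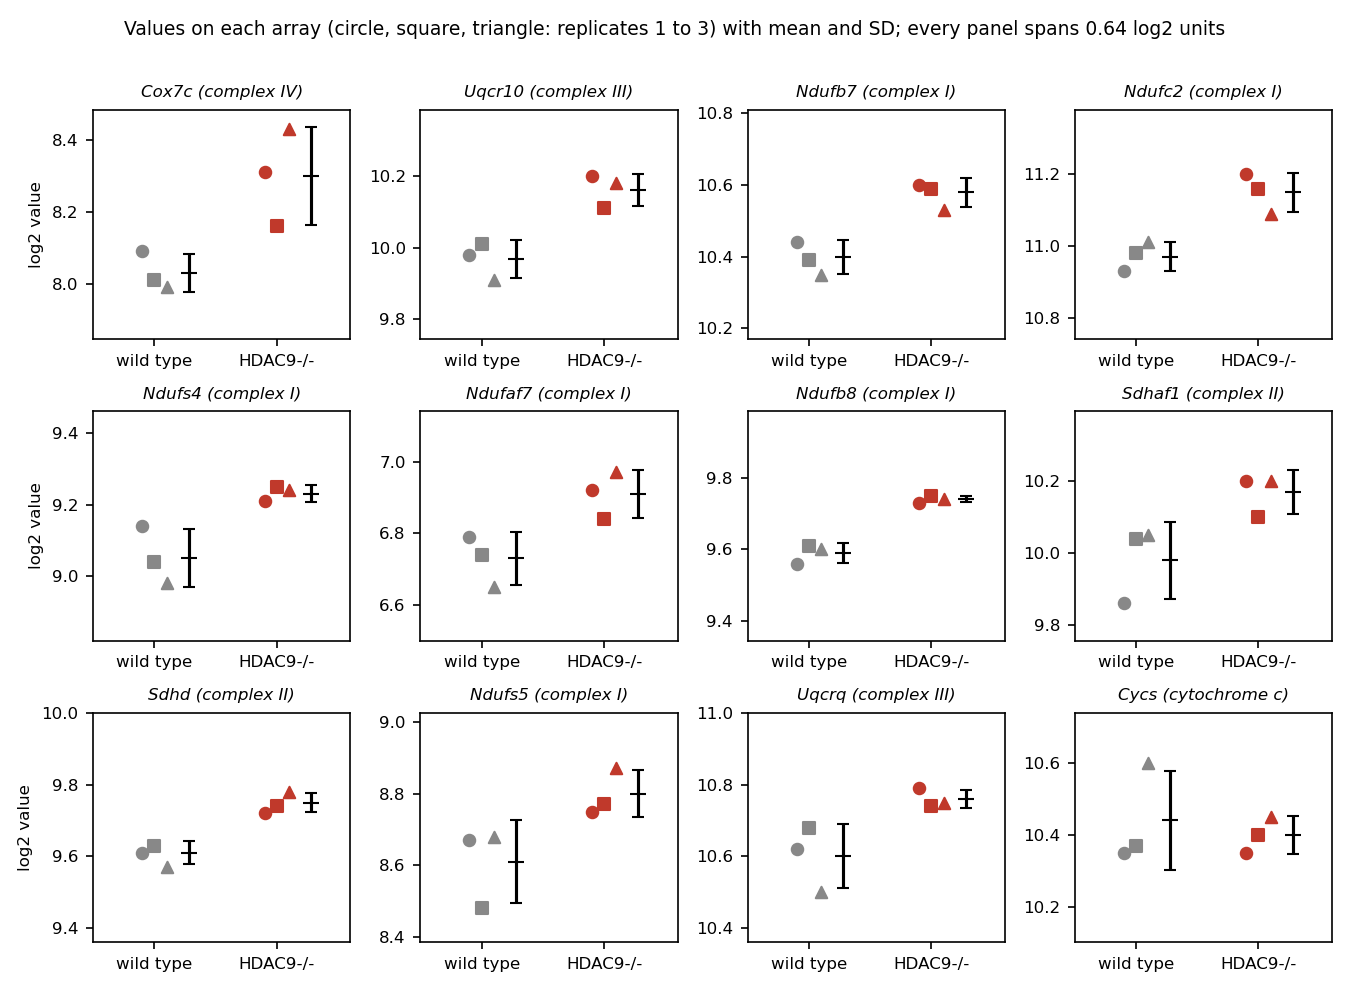
Log2 values (vertical axis, the same span in each panel) on each array for the 11 genes with the smallest unadjusted p and for Cycs; circles, squares and triangles are replicates 1 to 3, and black bars are means with SD (n = 3 per genotype). Wild type and HDAC9-/- points are separated in the 11 panels other than that of Cycs, where wild type replicate 3 (10.60) is the highest point.

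Complex V, ATP synthase, had a median of 0.076 over 17 genes, with 14 positive and 8 separated. The genes of the c ring, the rotor driven by protons, were all positive: Atp5g1 0.14, Atp5g2 0.13 and Atp5g3 0.072. These genes are known to encode the same mature protein. Atp5g2 read 11.39, 11.39 and 11.40 in wild type and 11.55, 11.54 and 11.49 in HDAC9-/- samples, and Atp5g1 9.54 to 9.68 against 9.69 to 9.77. Both were separated, with the wild type arrays of Atp5g2 almost identical.

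Atp5o, the peripheral stalk subunit that gives the enzyme its oligomycin sensitivity, read 10.31, 10.21 and 10.28 in wild type and 10.41 on each of the 3 HDAC9-/- arrays (difference 0.14 ± 0.06, limma adjusted p = 0.580). The genotypes did not overlap there, and they did in the brightest probe sets of the main subunits of the catalytic head. Atp5b, the catalytic beta subunit, read 11.49, 11.52 and 11.49 in wild type and 11.51, 11.43 and 11.43 in HDAC9-/- samples (-0.040). Atp5a1, the alpha subunit, had -0.023 in its brightest probe set. Its others had 0.028 with overlap and 0.16 with separated groups. The 5 genes of the head and central stalk had a median of 0.049 with 1 separated, the 5 supernumerary subunits 0.081 with 2 separated, and the 4 peripheral stalk subunits 0.066 with 3 separated.

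Cycs, the soluble electron carrier that also activates caspases when released, had a negative difference in its brightest probe set. It read 10.35, 10.37 and 10.60 in wild type and 10.35, 10.40 and 10.45 in HDAC9-/- samples. Wild type replicate 3 was the highest array, and the difference of -0.041 (95% confidence interval -0.25 to 0.17) turned to 0.038 without it. The other probe sets had 0.11, with separated groups, and 0.13.

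Further probe sets of the same genes gave further readings on the same arrays. Of the 89 genes, 47 had more than 1 probe set, with 75 probe sets beyond the brightest. Of those, 61 had positive differences, 59 had the sign of the gene's brightest probe set and the median was 0.089. The genotypes separated in 30 of the 75, all higher in HDAC9-/- samples, where 11.0% of all probe sets were separated higher. The 62 that were brighter than the median of all probe sets had a median of 0.094 with 54 positive. The smallest unadjusted p belonged to Ndufa7, an accessory subunit of complex I. In that probe set Ndufa7 read 8.13, 8.11 and 8.07 in wild type and 8.40, 8.43 and 8.40 in HDAC9-/- samples, a difference of 0.30 (limma, adjusted p = 0.398). The brightest probe set of Ndufa7 had 0.075. Probe sets of Ndufs8 (0.23 and 0.17), Ndufb2 (0.17) and Ndufb9 (0.15) were the others with an unadjusted p below 0.05, beside those of Ndufb7 and Ndufc2. In all, 7 of the 75 were higher at that p, beside 5.55% of all probe sets, which is not read as a result about them. These probe sets target the same transcripts and are not independent genes.

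A score was computed for each array by centring every gene on its mean of all 6 arrays and averaging over genes. For the 89 genes it was -0.021, -0.047 and -0.058 on wild type arrays 1 to 3 and 0.053, 0.034 and 0.039 on HDAC9-/- arrays 1 to 3. All 3 HDAC9-/- arrays were thus above all wild type arrays, and the same held for complexes I, II, III and V. For complex IV the groups overlapped, at -0.036, -0.072 and 0.012 against 0.061, 0.041 and -0.004, and without its tissue-restricted genes they did not (-0.078 to -0.041 against 0.026 to 0.079). Wild type replicate 3 was the lowest array for 46 of the 89 genes. Without it the median difference was 0.076 and 80 genes were positive.

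**Figure D4:**
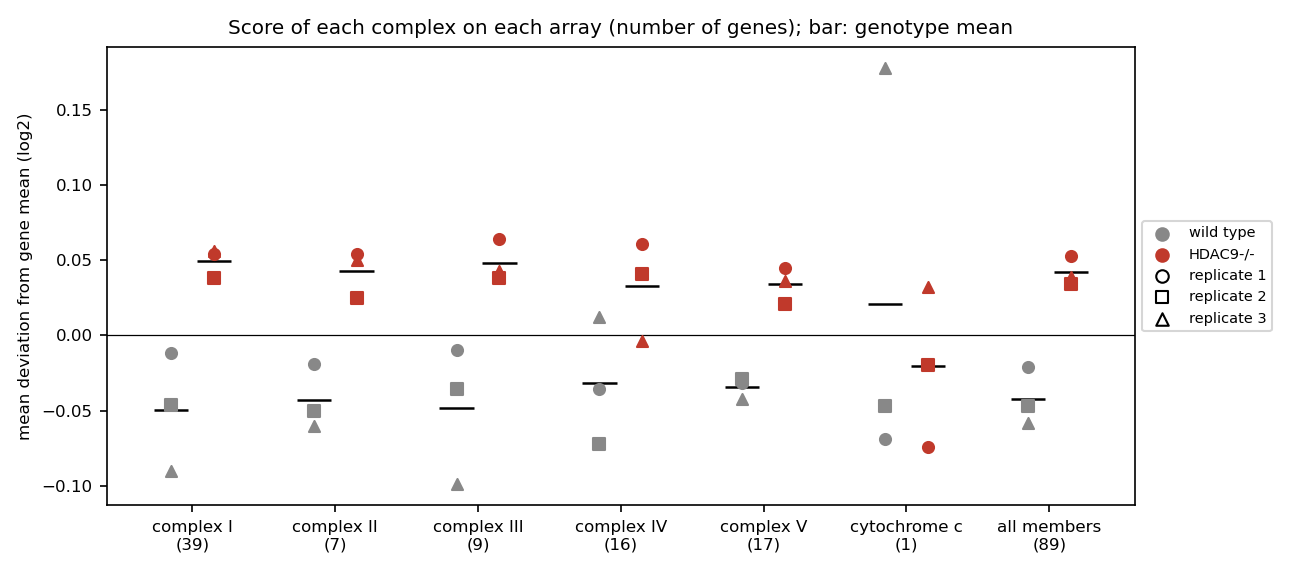
Score of each complex on each array (vertical axis, mean deviation from the gene means in log2) for wild type (grey) and HDAC9-/- (red) samples, with replicates 1 to 3 as circles, squares and triangles, the number of genes below each name and bars at the genotype means. The genotypes do not overlap for complexes I, II, III and V and overlap for complex IV and Cycs.

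Other measures moved with the same arrays. For Gapdh, the control probe set at the 3-prime end minus that at the 5-prime end, which tracks RNA quality, was 0.03 to 0.11 on wild type and 0.15 to 0.28 on HDAC9-/- arrays, while that of actin overlapped (0.33 to 0.46 and 0.42 to 0.60). Array medians were 5.69 to 5.81 in wild type, lowest on replicate 3, and 5.78 to 5.79 in HDAC9-/- samples. All 13 myeloid markers had positive differences, from 0.17 to 1.46 with a median of 0.46. Of these 7 were separated, against 11.0% of all probe sets and 12.5% of all genes. At an unadjusted p below 0.05 (limma) there were 8, against 5.55% of all probe sets and 6.12% of all genes. Those with the smallest p were Chil3 (1.46), Ltf (1.22) and S100a9 (1.01), all separated (limma adjusted p = 0.398, 0.423 and 0.445). Myeloid scores were -0.659, -0.119 and -0.139 on the wild type and 0.411, 0.452 and 0.055 on the HDAC9-/- arrays. The scores of CD8 T and natural killer cell markers (7 of 10 genes positive, -0.207 to 0.054 against -0.088 to 0.227), of B and plasma cell markers (4 of 8, -0.020 to 0.101 against -0.183 to 0.131) and of red cell and platelet markers (2 of 6, -0.067 to 0.099 against -0.111 to 0.080) overlapped between genotypes. The CD8 T and natural killer cell genes had a median difference of 0.23, with 3 negative. Eomes (0.24) was the 1 separated gene of the 10, against 12.5% of all genes, while Gzmb (0.49) and Klrd1 (0.23) overlapped. Among the 8 B and plasma cell genes 3 were separated lower, 2 of them at an unadjusted p below 0.05. Over all genes 5.70% were separated lower and 2.62% were lower at that p. Jchain, the joining chain of secreted antibodies, read 11.99, 11.93 and 12.04 in wild type and 11.58, 11.39 and 11.59 in HDAC9-/- samples (difference -0.47, limma adjusted p = 0.337). The others were Xbp1 (-0.18) and Pax5 (-0.23), which was dim, at 3.85 to 4.20 over all arrays. Cd79b (0.235), Cd79a (0.11), Ms4a1 (0.065) and Prdm1 (0.022) were positive with overlapping groups, and Sdc1 had -0.046 with overlap. The 7 Treg and T cell markers had a median of -0.047, with 3 positive. A fit with array medians aligned is given with the alternatives below. Beyond that fit, the part of RNA quality, array medians and other cell types in the result was not tested.

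Genes that work with the chain were read from lists of assembly factors, carriers, tricarboxylic acid cycle enzymes, regulators and ribosomal proteins, and 0 genes in these lists had an adjusted p below 0.05 (limma). At an unadjusted p below 0.05, 3 of 26 assembly factors, 1 of 12 carriers and 1 of 15 cycle enzymes were higher. So were 13 of 74 mitochondrial and 3 of 44 cytosolic ribosomal protein genes, while Yy1 and ND5 were lower. The background was 5.55% of all probe sets and 6.12% of all genes on the higher side, and 3.23% and 2.62% on the lower. For counts of separated genes it was 11.0% of all probe sets and 12.5% of all genes higher, and 6.04% and 5.70% lower. The 26 assembly factors measured outside the naming rule had 20 positive differences, a median of 0.058 and 6 separated genes, all higher, but a median of 0.010 without wild type replicate 3. Atpif1, the inhibitor that stops ATP synthase from running backwards, read 8.54, 8.37 and 8.54 in wild type and 8.68, 8.72 and 8.76 in HDAC9-/- samples (difference 0.24, limma adjusted p = 0.496). Pet100 (0.18) and Cox16 (0.16), both assembly factors of complex IV, were separated as well.

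The 12 carriers and other donors to the quinone pool had 10 positive differences and a median of 0.094, with 6 separated. Vdac1, the main channel of the outer mitochondrial membrane, read 9.78, 9.74 and 9.76 in wild type and 10.04, 9.93 and 9.99 in HDAC9-/- samples. That difference of 0.23 (limma, adjusted p = 0.445) was larger than the range within either genotype. Vdac2 had 0.14 and Etfa, a subunit of the flavoprotein that carries electrons from fatty acid oxidation, 0.14, both separated. Of 15 tricarboxylic acid cycle genes 12 were positive, with a median of 0.046 (0.020 with array medians aligned, 0.0072 without HDAC9-/- replicate 1) and 2 separated higher and 1 lower. Beside the counts of both lists, 12.5% of all genes were separated higher and 5.70% lower. The counts of the cycle genes are near those shares and are not read as a result about them. Fumarate hydratase, Fh1, had 0.17 and Idh3g 0.15, both separated. Dld, a subunit shared by several dehydrogenase complexes, had 0.20 with overlap, and 0.12 without wild type replicate 3.

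The 1 mitochondrial DNA encoded subunit with a probe set of 1 symbol had a negative difference. ND5, a proton-pumping subunit of complex I, read 12.28, 12.40 and 12.41 in wild type and 11.99, 12.12 and 12.24 in HDAC9-/- samples. All HDAC9-/- arrays were below all wild type arrays, with a difference of -0.25 ± 0.09 (standard error; limma, adjusted p = 0.536). The other 12 mitochondrially encoded genes of the list were not analysed here.

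Regulators of mitochondrial gene expression were mixed, with 10 positive and 11 negative differences of 21 and a median of -0.0092, which ran from -0.061 without wild type replicate 3 to 0.046 without wild type replicate 2. Yy1 read 10.20, 10.13 and 10.17 on the wild type arrays, against 9.98 to 10.03 with HDAC9-/-, without overlap (difference -0.16, limma adjusted p = 0.549). Tfb1m, which methylates mitochondrial ribosomal RNA, had 0.16 and Mterf4 had -0.15. Nrf1, the gene of NRF-1, had -0.0092 (95% confidence interval -0.23 to 0.21), and Gabpa, the DNA-binding subunit of GABP, had -0.062 (-0.22 to 0.099). Tfam, which packages mitochondrial DNA, had 0.035.

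Ribosomal proteins were read as a further comparison. The 74 mitochondrial ribosomal protein genes had 64 positive differences, a median of 0.11 and 39 separated higher and 1 lower. The 44 cytosolic ribosomal protein genes, whose mean levels ran from 3.13 to 14.17, had 30 positive differences and a median of 0.017 (-0.0089 with array medians aligned). Of these 10 were separated higher and 2 lower. Over all genes 12.5% were separated higher and 5.70% lower. Among genes with a mean of at least 10 these shares were 21.9% and 10.4%. These lists were set beside the 89 genes by counts and medians only, and differences between lists were not tested.

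**Figure D5:**
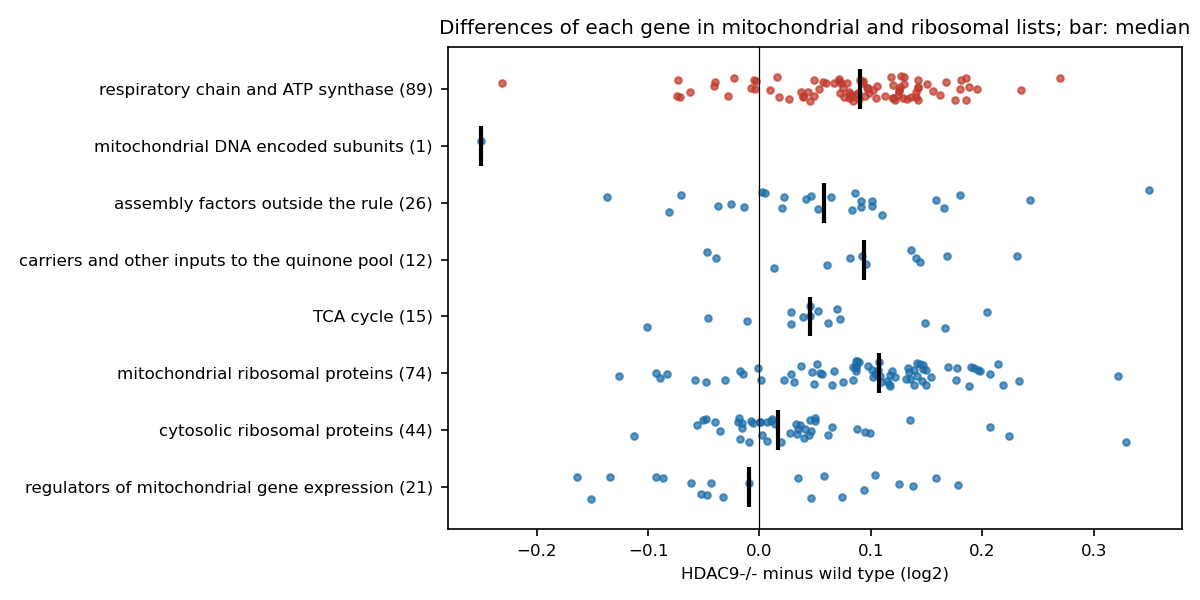
Difference between HDAC9-/- and wild type arrays (horizontal axis, log2) for each gene of the respiratory chain and ATP synthase (red) and of 7 related lists (blue), with the number of genes in parentheses and black bars at the medians. Points are spread vertically at random within a list. Medians are 0.090 for the chain, 0.11 for mitochondrial ribosomal proteins, 0.094 for carriers and -0.25 for the single mitochondrial DNA encoded gene.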

How the data were processed

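Total RNA of 3 samples per genotype was hybridised to 1 expression array each. The deposited log2 values, 1 per probe set and array, come from RMA (background correction, quantile normalization and summary over probes), which the submitters' processing notes name; the sources used here give no version, settings or genome build. All 22626 probe sets other than 64 controls entered 1 linear model per probe set with genotype as its term and no filter (lmFit and eBayes, limma 3.58.1, R 4.3.3), with Benjamini-Hochberg adjustment over all of them and a threshold of 0.05. Members had 164 probe sets, and 8 with several symbols were omitted. Genes are called separated where the genotypes' arrays do not overlap. Members, lists and the rule for named genes were chosen with earlier results of these data known, so no list was tested. That rule takes members with an unadjusted p below 0.05, the 3 smallest p and the lowest difference per complex, Cycs and Cyc1, genes whose probe sets disagree or reach that p, tissue-restricted isoforms, up to 3 genes per other list, Hdac9 and Treg markers; other genes were named after their values were seen. The lists were those of assembly factors, carriers, tricarboxylic acid cycle genes, regulators, mitochondrial DNA encoded subunits, ribosomal proteins and cell type markers. The model was tested on simulated data. Alternatives were renormalization, a dim-probe filter, other priors and weights, averaged probe sets, subunits only, the replicate block and leaving out each array. Figures used matplotlib 3.10.9 in Python 3.11.15.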

Additional observations from a re-analysis of the deposited data

How the results depend on the processing

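No alternative tried gave any of the 89 genes an adjusted p below 0.05 with limma, and 0 had an adjusted p below 0.10. The median over all genes and that of each complex stayed positive under every alternative. With array medians aligned the medians were 0.0645 over all genes, 0.0675 for complex I, 0.0665 for complex IV and 0.0503 for complex V, while 27 genes were separated higher, 1 lower, and 2 were higher at an unadjusted p below 0.05 (background 3.83%). That count was 11 with array weights (6.69% of all probe sets), 20 of 85 with dim probe sets left out (10.8%) and 33 with the trended and robust prior (6.75%). With the replicate block it was 2 (4.33%). Same-numbered arrays correlated at 0.0365, 0.0991 and -0.2487 in their deviations, and the main fit did not treat them as pairs. With so few arrays, these values cannot show whether same-numbered samples were prepared together, and the labels do not say. Array weights gave medians of 0.0835 for complex II and 0.0812 for complex IV, and averaged probe sets 0.0412 for complex II, 0.0641 for complex IV and 0.0569 for complex V. Leaving out 1 array gave 0 to 6 genes higher and 0 to 1 lower at an unadjusted p below 0.05, 0 to 4 separated lower, and medians of 0.0831 to 0.1228 for complex I, 0.0735 to 0.1378 for complex II and 0.0792 to 0.0994 for complex IV. Signs turned for Atp5a1 (0.0556 with averaged probe sets, -0.079 to 0.0239 leaving out 1 array), Cycs (0.0147 with array weights, 0.0656 with averaged probe sets, -0.086 to 0.0378 leaving out 1 array), Ndufaf3 (-0.0488 to 0.0460 leaving out 1 array) and Uqcrq (-0.0975 with averaged probe sets). The other 477 of 486 single-gene values kept their sign, where these values cover only the 35 members taken by the rule for named genes. Members outside that rule also turned with 1 array left out, among them Sdha (-0.0298 to 0.0247), Uqcrh (-0.0328 to 0.0118) and Ndufs1 (-0.0328 to 0.0596). Values of Sdhaf4, Sdhc and Dld with 1 array left out, and the fit on 1 probe set per gene, were added after the data were seen; that fit gave 9 genes at an unadjusted p below 0.05, against 6.76% of all genes. Causes of these changes were not tested.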

Other observations

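The 8 probe sets omitted because they carry several symbols include further complex I subunits whose copies cannot be told apart. All 8 had positive differences, from 0.0041 to 0.19 with a median of 0.12, where 52.2% of all probe sets were positive. Of the 8, 4 were separated, all higher in HDAC9-/- samples (smallest limma adjusted p = 0.582), against 11.0% of all probe sets. The separated ones carry the symbols Ndufb4, Ndufa11 or Ndufs6. The others share a symbol with a gene of the 89: Ndufs5 (0.19), Ndufab1 (0.0041), Ndufa13 (0.0086) and Ndufb2 (0.014). Those of Ndufa13 and Ndufb2 were dim, below the overall array median of 5.76.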
